A study of Danio rerio with 24 samples.

Results

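The genes described here encode the voltage-gated sodium and calcium channels of zebrafish and their accessory subunits. They were taken from the gene count table by symbol, as every row whose name starts with scn and a digit or with cacn. The rule found 62 of 32266 genes, of which 14 were sodium channel genes and 48 were calcium channel genes. RNA was measured in rb1 brain tumors of 10 adult fish, each mosaic after somatic targeting of rb1 with TALENs, so a tumor sample can also hold cells whose rb1 is intact. The controls were 2 pools of normal brain from wild-type siblings, with 3 brains in each pool. All fish were of the WIK strain and between 6.5 and 10 months old according to the sample labels. Only one side of each brain was used, and the dissected stretch spanned the diencephalon, midbrain and cerebellum. Each of the 12 RNA samples gave 2 libraries, a and b, which were summed here.

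A voltage-gated channel opens when the membrane depolarises. The large alpha subunit (alpha1 in calcium channels) forms the pore and carries the voltage sensors. Sodium channels carry the rising phase of the action potential along axons, and their beta subunits are small membrane proteins of the immunoglobulin family that set gating and surface level. Calcium channels turn the depolarisation into a calcium signal: the P/Q, N and R types trigger transmitter release at nerve terminals, the L type signals from the cell body and dendrites to the nucleus and drives contraction in muscle, and the T type opens near the resting potential and shapes burst firing. The alpha2delta and beta subunits bring the pore to the membrane. Most gamma genes encode partners of AMPA-type glutamate receptors (TARPs) rather than parts of a calcium channel, as established in mammals.

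Channel genes were lower in the tumors as a family. Of 59 members with enough reads to test, 42 fell and 0 rose, and 17 did not pass. A gene was called when it differed at least 1.5-fold with an adjusted p no higher than 0.01 in edgeR's quasi-likelihood test, Benjamini-Hochberg adjusted over all 20957 genes tested. Over all genes tested, 24.9% were called lower and 22.8% were called higher by the same rule. The median log2 fold change was -2.02 over the tested members and 0.09 over all genes tested. Among the 42 that fell, 29 fell by 4-fold or more and 6 by 8-fold or more. In edgeR, 2 members lay above control at an unadjusted p under 0.05, the L-type genes cacna1fa and cacna1sb. DESeq2 also called 0 higher, with 3 members above control at an unadjusted p under 0.05, and limma voom with sample weights called those 2 L-type genes higher. In bulk tissue, fewer cells of a type and less RNA per cell cannot be told apart.

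The samples of both groups were sequenced to a like depth, between 18498108 and 24953666 counted reads per tumor, against 19754932 and 21035458 per control pool. Levels are given as counts per 1000000 reads (CPM) after TMM scaling of library size, and as FPKM (CPM per kilobase of exon) where genes are compared with each other. Control values here and below are those of the 2 pools and of the a and b libraries, each summed over both pools. All 10 tumors lay below every control value for 45 tested members and above every control value for 0. Over all genes tested, these shares were 31.5% below and 30.4% above. Between the 2 pools, control libraries of one letter showed no difference beyond that of read sampling (chi-square per degree of freedom 1.004 for a and 1.007 for b), while a and b of one pool differed more (3.25 and 3.42). From the counts it cannot be told whether the pool numbers mark separate RNA samples. Values per pool therefore need not show the spread between fish, and class sums below are set beside the control a and b sums, which do differ. Leaving out either pool left 36 members lower. The 6 members then lost were cacna2d2a, cacnb2a, cacng5b, scn3b, scn4ba and scn4bb, with adjusted p between 0.0105 and 0.0658.

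**Figure D1:**
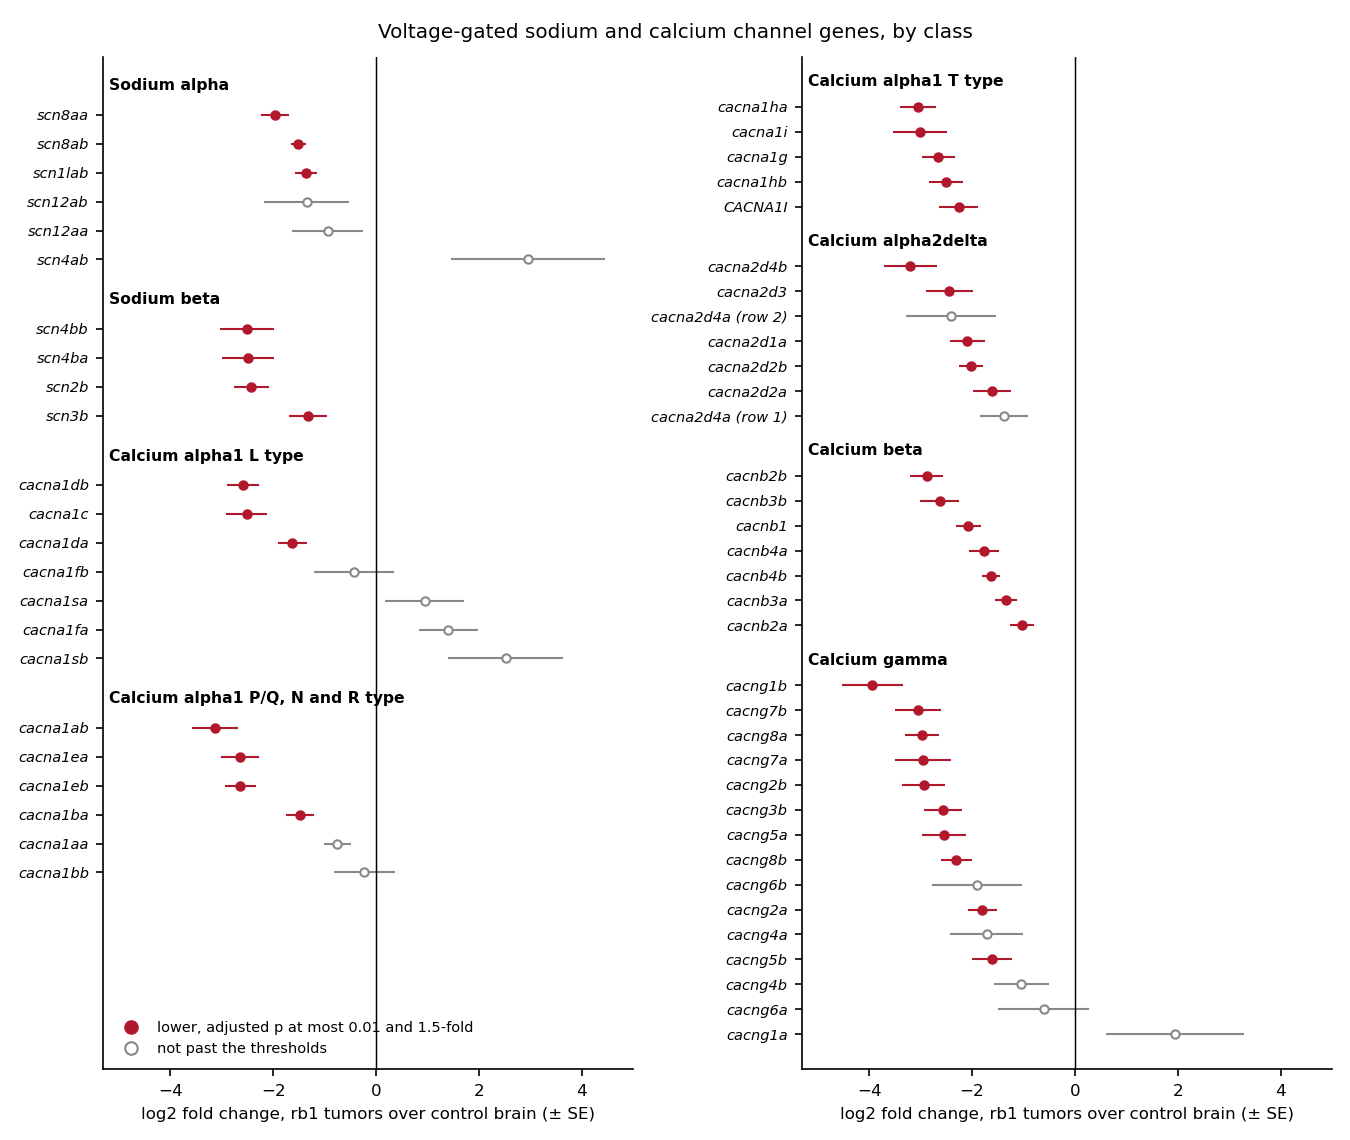
Log2 fold change with its standard error for 57 tested channel genes (horizontal axis, rb1 tumors over control brain), grouped by class. Filled points are the 41 of them called lower. Open points are the 16 that did not pass, of which 5 lie right of 0.

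Of the 8 sodium alpha genes, 6 were tested and 3 fell: scn8aa, scn8ab and scn1lab. The sodium alpha gene with the most RNA per length in both groups was scn8aa, a zebrafish copy of the gene for the main alpha subunit of axon initial segments and nodes of Ranvier in mammals. Its level ranged between 44.2 and 148 CPM in the tumors, with a median of 95.9 CPM, against 379 and 386 CPM in the control pools. Every tumor was far below both pools, and the log2 fold change was -1.96 ± 0.27 (SE, adjusted p = 4.18e-05). The other copy, scn8ab, ranged between 48.2 and 71.5 CPM in the tumors (median 55.2 CPM), against 161 and 167 CPM in the control pools. It was the steadiest of the 42 genes that fell, its highest tumor being 1.48 times its lowest, and its log2 fold change was -1.51 ± 0.14 (adjusted p = 2.43e-06). The gene scn1lab, whose loss causes seizures in zebrafish larvae, ranged between 60.0 and 123 CPM in the tumors (median 78.0 CPM), against 213 and 214 CPM in the control pools. The groups did not overlap, and the log2 fold change was -1.36 ± 0.21 (adjusted p = 9.37e-05).

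The other sodium alpha genes were scarce. The muscle-type gene scn4ab had the highest positive fold change of all members, but its tumors disagreed with each other. Tumor 5 held 13.2 CPM, tumors 1, 4, 8 and 10 held between 2.84 and 5.82 CPM, and tumor 9 held 0.254 CPM, against 0.387 and 0.453 CPM in the control pools. In 7 of 10 tumors it lay above every control value, the fold change of 2.96 ± 1.5 (SE) did not pass (adjusted p = 0.102), and the 2 control pools together held 18 reads. The summed level of skeletal muscle markers was 9.97 to 16.5 CPM in the tumors, against 19.5 and 18.2 CPM in the control pools. Of 10 tested markers, 0 were called higher and 3 lower, against 22.8% and 24.9% over all genes tested. All tumors lay below every control value for 5 tested muscle markers and above for 2, against 31.5% and 30.4% over all genes tested. The 2 were acta1a (0.78) and acta1b (1.27), neither called. The troponin gene tnni2a.4 was at 0 in every sample. The gene myog was at 0 in both pools and in 8 tumors, with 1.23 CPM in tumor 3 and 0.456 CPM in tumor 6. The part of muscle RNA in the scn4ab level was not tested. The genes scn12aa (-0.94) and scn12ab (-1.35) did not pass. For scn12ab, 9 tumors lay below every control value and tumor 9 lay above at 2.44 CPM, and without tumor 9 the gene was called lower at -2.02 (adjusted p = 0.00588). The rows scn4aa and scn1a (named scn1laa in a later gene table) were not tested and stayed under 0.5 CPM in every sample.

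Of the 6 sodium beta genes, 5 fell. The median of the class was -2.46 on the log2 scale, beside -1.35 for the 6 tested alpha genes, a difference that was not tested. The disulfide-linked beta subunit genes scn2b (-2.43), scn4ba (-2.49) and scn4bb (-2.51) fell by similar amounts. The level of scn2b ranged between 8.6 and 33.4 CPM in the tumors (median 18 CPM), against 104 and 101 CPM in the control pools (-2.43 ± 0.34, adjusted p = 5.09e-05). The level of scn3b ranged between 9.48 and 36.8 CPM in the tumors (median 16.6 CPM), against 49.2 and 44.7 CPM in the control pools. Every tumor was below both pools for these genes. For scn3b (-1.33 ± 0.37) the call was marginal: at an adjusted p of 0.00764 it passed, and it was lost without tumor 1, 2, 4, 8 or 10 (adjusted p between 0.0101 and 0.0173).

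**Figure D2:**
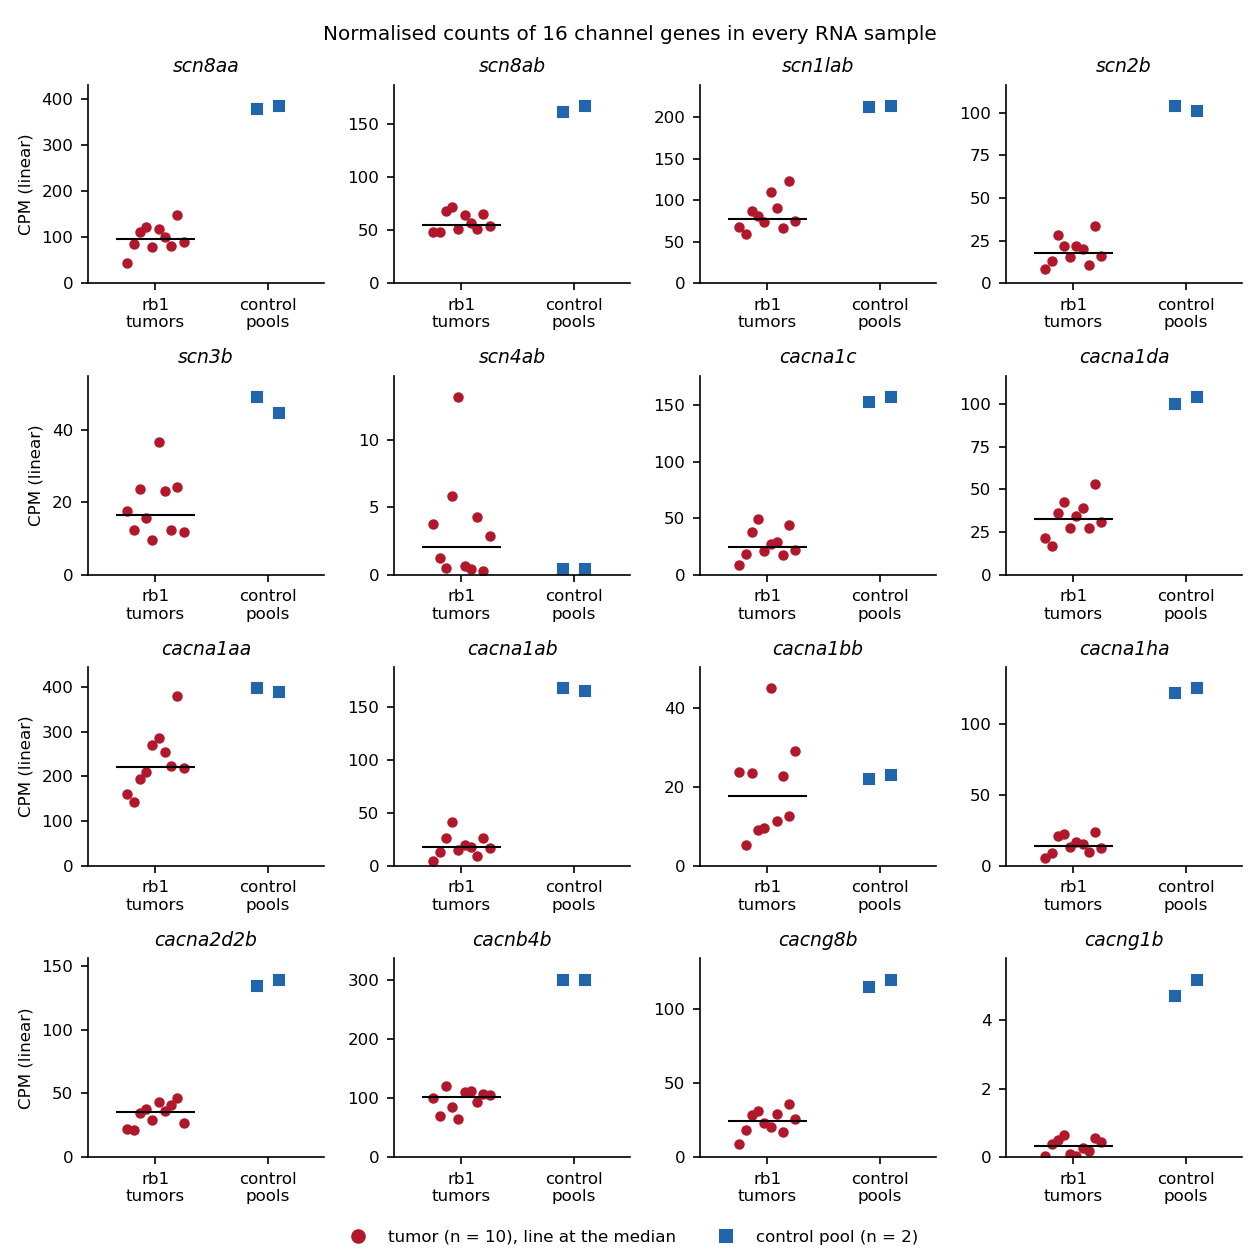
Normalised counts (CPM, linear axis from 0) of 16 channel genes in each of the 10 rb1 tumors (circles, line at the median) and the 2 control pools (squares). For scn8ab the tumors are tightly grouped below the pools. For cacna1bb and scn4ab the tumors spread around or above them.

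The presynaptic calcium channel genes were split. Of the 6 P/Q, N and R type alpha1 genes, 4 fell, and the most abundant one did not pass. This gene, cacna1aa, a copy of the P/Q-type pore gene, ranged between 142 and 381 CPM in the tumors (median 222 CPM), against 397 and 388 CPM in the control pools. Only tumor 9 came near the control level, and the log2 fold change was -0.75 ± 0.26 (adjusted p = 0.0254); without tumor 9 it was -0.88 and passed (adjusted p = 0.00315). The other P/Q copy, cacna1ab, ranged between 4.94 and 41.1 CPM in the tumors (median 17.6 CPM), against 168 and 166 CPM in the control pools. Every tumor was far below both pools, and the log2 fold change was -3.13 ± 0.44 (adjusted p = 4.90e-05), the largest fall of this class. The R-type genes cacna1ea (-2.65) and cacna1eb (-2.64) fell alike.

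The N-type pore gene cacna1ba fell (-1.48), while its copy cacna1bb did not pass. In tumor 6, cacna1bb was at 45.1 CPM and in tumor 2 it was at 5.31 CPM, with a median of 17.7 CPM, against 22.1 and 23.1 CPM in the control pools. Of the 10 tumors, 5 lay below and 4 above every control value (log2 fold change -0.23 ± 0.59, adjusted p = 0.75).

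All 5 T-type genes fell, by a median of -2.66 on the log2 scale. Their summed level was 4.23 ± 1.5 FPKM in the tumors (SD, n = 10), against 29.5 and 29.1 FPKM in the control a and b sums, or 14.5% of the control mean, the smallest share of the 8 classes. The gene cacna1ha led the class in control brain. It ranged between 5.46 and 23.7 CPM in the tumors (median 14.2 CPM), against 122 and 125 CPM in the control pools (log2 fold change -3.05 ± 0.35, adjusted p = 1.16e-05). The gene cacna1g, which in mammals serves thalamic relay neurons, led it in the tumors, between 5.41 and 23 CPM (median 15.3 CPM), against 98.9 and 101 CPM in the control pools (-2.66 ± 0.32, adjusted p = 1.80e-05). Neither gene had a tumor near the control level. The other members were cacna1hb (-2.51), cacna1i (-3.01) and a row named CACNA1I (-2.26), which the later gene table names cacna1ib.

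Of the 7 L-type genes, cacna1c, cacna1da and cacna1db fell. The genes cacna1fa and cacna1fb, known from the retina, and cacna1sa and cacna1sb, known from skeletal muscle, did not pass. The control brain's leading L-type gene, cacna1c, ranged between 8.69 and 49.6 CPM in the tumors (median 24.1 CPM), against 153 and 157 CPM in the control pools (-2.51 ± 0.40, adjusted p = 0.000127). The L-type gene with the highest mean FPKM in the tumors was cacna1da, between 16.8 and 53.3 CPM in the tumors (median 32.5 CPM), against 99.7 and 104 CPM in the control pools (-1.63 ± 0.28, adjusted p = 0.000269). Of the class's FPKM, cacna1da held 38.7% in the tumors and 31.8% in control brain, and cacna1c held 35.9% in the tumors and 54.2% in control brain. Per length, cacna1da was above cacna1c in 7 of 10 tumors. The copy of cacna1da, cacna1db, had the largest fall of the class, between 1.99 and 6.89 CPM in the tumors (median 4.31 CPM), against 25.7 and 27.3 CPM in the control pools (-2.58 ± 0.31, adjusted p = 1.74e-05).

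The retinal and muscle L-type genes were at low counts. The level of cacna1fa ranged between 0.855 and 4.97 CPM in the tumors (median 2.34 CPM), against 0.918 and 1.09 CPM in the control pools, with 9 of 10 tumors above every control value (1.41 ± 0.58, adjusted p = 0.0476). The level of cacna1sb was above every control value in 9 of 10 tumors (2.52 ± 1.11, adjusted p = 0.0628), from 156 reads in the 10 tumors together and 5 reads in the 2 pools together. For cacna1fb (-0.43) and cacna1sa (0.95) the groups overlapped. Of 6 photoreceptor markers tested, 0 were called in either direction, against 24.9% lower and 22.8% higher over all genes tested. DESeq2 called 3 markers of this list lower and 0 higher. Tumor 10 alone held a summed photoreceptor marker level of 144 CPM, the other 9 held between 3.27 and 5.4 CPM, and the control pools held 8.55 and 9.74 CPM. In tumor 10, cacna1fb was at 8.05 CPM, below the 17.8 CPM of tumor 3, and cacna1fa was at 4.44 CPM, below only the 4.97 CPM of tumor 6. The part of photoreceptor RNA in these levels was not tested.

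All 7 calcium channel beta genes fell, with log2 fold changes between -2.88 and -1.03. The main beta gene of both groups, cacnb4b, ranged between 64.4 and 121 CPM in the tumors (median 103 CPM), against 299 and 300 CPM in the control pools (-1.63 ± 0.18, adjusted p = 9.13e-06). The largest fall was that of cacnb2b, between 1.28 and 3.94 CPM in the tumors (median 2.19 CPM), against 16.3 and 17.3 CPM in the control pools (-2.88 ± 0.32, adjusted p = 9.80e-06). In both genes every tumor was below both pools. The others were cacnb1 (-2.07), cacnb2a (-1.03), cacnb3a (-1.34), cacnb3b (-2.63) and cacnb4a (-1.76).

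Among the 7 alpha2delta rows, 5 fell. The main gene of both groups, cacna2d2b, ranged between 21.7 and 46.0 CPM in the tumors (median 35.1 CPM), against 134 and 139 CPM in the control pools (-2.02 ± 0.23, adjusted p = 1.02e-05). The largest fall was that of cacna2d4b, the copy of a gene needed in mammalian photoreceptors, between 1.61 and 14.9 CPM in the tumors (median 4.55 CPM), against 50.2 and 50.5 CPM in the control pools (-3.20 ± 0.52, adjusted p = 0.000151). Neither gene had a tumor within the control range. The genes cacna2d1a (-2.09), cacna2d2a (-1.61) and cacna2d3 (-2.44) also fell. The 2 rows named cacna2d4a (-1.38 and -2.41) were under 1 CPM in every sample, and both had all tumors below every control value without passing.

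Of 16 gamma genes, 15 were tested and 10 fell. The TARP genes with the most RNA per length were cacng8b in control brain and cacng2a, the stargazin gene, in the tumors. In the tumors they were close, with a mean of 7.99 FPKM for cacng2a and 7.81 FPKM for cacng8b. The level of cacng8b ranged between 9.21 and 35.7 CPM in the tumors (median 24.1 CPM), against 115 and 120 CPM in the control pools (-2.31 ± 0.30, adjusted p = 3.11e-05). The level of cacng2a ranged between 13.7 and 31.6 CPM in the tumors (median 26.1 CPM), against 83.7 and 82.7 CPM in the control pools (-1.80 ± 0.28, adjusted p = 0.000116). All tumors were below both pools for these genes. The remaining TARP genes that fell were cacng2b (-2.94), cacng3b (-2.57), cacng5a (-2.54), cacng5b (-1.62), cacng7a (-2.95), cacng7b (-3.05) and cacng8a (-2.97). The TARP genes cacng4a (-1.71 ± 0.71, adjusted p = 0.0522) and cacng4b (-1.04 ± 0.54, adjusted p = 0.111) did not pass, and cacng4b reached 12.6 CPM in tumor 8, above both pools.

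The largest fall of any member was that of cacng1b, a copy of the gene for the gamma subunit of the skeletal muscle calcium channel. It ranged between 0.0414 and 0.656 CPM in the tumors (median 0.338 CPM), against 4.69 and 5.17 CPM in the control pools (-3.94 ± 0.59, adjusted p = 8.75e-05). Tumors 1, 5 and 6 were under the level that 3 reads give at these depths, 0.12 to 0.162 CPM. Its copy cacng1a (1.94), and cacng6a (-0.61) and cacng6b (-1.90), which belong to the same gamma branch, stayed under 1 CPM in every sample and did not pass. The row cacng3a held 3 reads in the 10 tumors together and 2 in the control pools together and was not tested.

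Summed per class, the channel RNA that remained in the tumors was between 14.5% and 37.1% of control. The P/Q, N and R class kept the largest share (32.1 ± 8.38 FPKM in the tumors, SD, n = 10, against 89.1 and 84.1 FPKM in the control a and b sums), and cacna1aa alone held 65.8% of it in the tumors, against 41.1% in control brain. The sodium alpha class kept 31.5% of control, the beta class of calcium channels 30.6%, the L type 26.5%, alpha2delta 23.2%, sodium beta 23% and gamma 17.5%. Every tumor was below both control sums in each class.

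**Figure D3:**
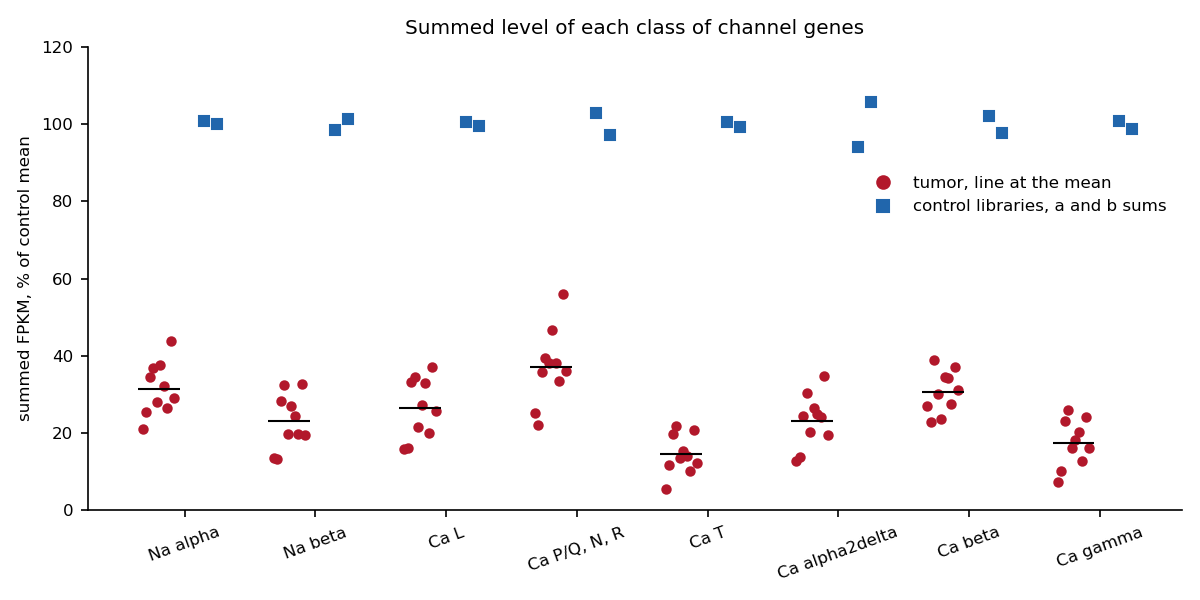
Summed FPKM of each class of channel genes as a percentage of the control mean (linear axis from 0), for the 10 rb1 tumors (circles, line at the mean) and the control a and b sums (squares). T-type genes kept 14.5% and P/Q, N and R type genes 37.1%.

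Many of these genes exist as a and b copies from the genome duplication of teleost fishes, and the copies were compared within pairs. Of the pairs described here, 21 had both copies tested, and in 13 of these both copies fell. No pair had copies called in opposite directions. In 3 pairs a single copy fell: cacna1a, cacna1b and cacng1. The ratio of copy a to copy b in FPKM was 9.69 in the tumors and 1.86 in control brain for cacna1a. In cacna1b the same ratio was 1.01 in the tumors and 2.40 in control brain. Pairs in which both fell could also shift, as cacnb2 did (6.35 in the tumors, 1.75 in control brain), or keep their ratio, as cacna1e did (1.84 in the tumors, 1.86 in control brain). These ratios are descriptions without a test, and reads that map to both copies were not counted, which can change the level of either copy.

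**Figure D4:**
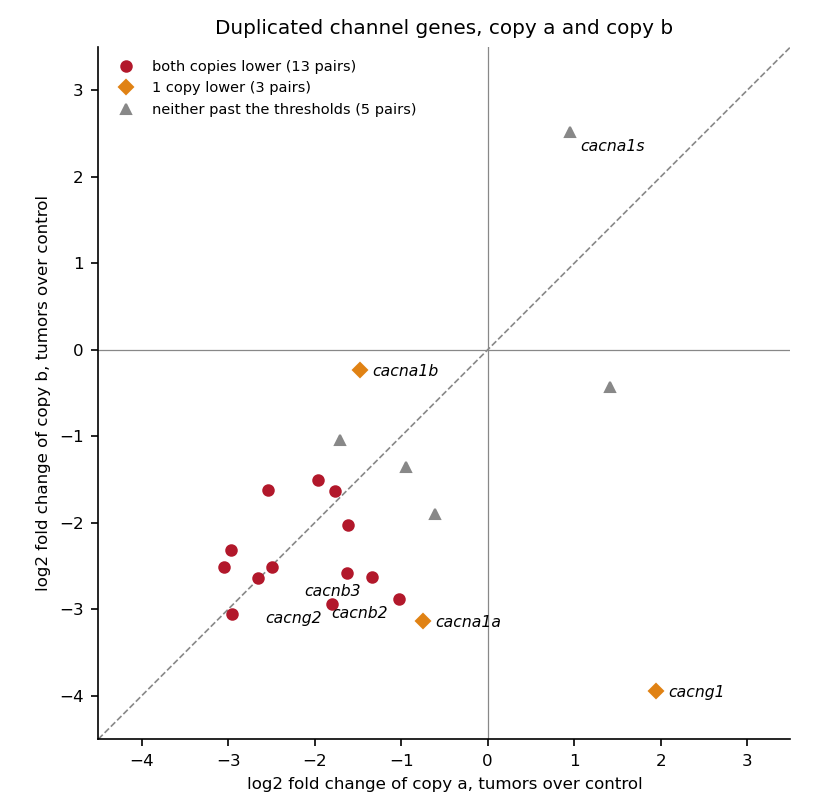
Log2 fold change (rb1 tumors over control brain) of copy a (horizontal axis) and copy b (vertical axis) for 21 duplicated channel genes with both copies tested, with the dashed line where both are equal. Circles are 13 pairs with both copies lower. Diamonds are 3 pairs with 1 copy lower, among them cacna1a at -0.75 and -3.13.

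Several members lie next to each other in the genome. In the RefSeq gene order of the assembly GRCz12tu, which is not the build of the counts, 57 of 60 member symbols were found. The gamma genes form runs of neighbours, cacng6b, cacng8b and cacng7b in one and cacng6a, cacng8a and cacng7a in another. In both runs the TARP genes fell and the cacng6 copy did not pass. The cacng6 copies were under 1 CPM in every sample, with wide errors (cacng6b -1.90 ± 0.87, cacng6a -0.61 ± 0.88). The sodium beta genes scn4ba and scn2b are adjacent and both fell (-2.49 and -2.43). Calls also differed between adjacent genes. The gene cacng1b fell by 3.94 on the log2 scale while its neighbour cacng4b (-1.04) did not pass. The gene cacng5a fell (-2.54) beside cacng1a (1.94), which did not pass and held 3 reads in the control pools together.

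The same tumors often lay at the ends of the range. Among the 42 genes that fell, tumor 1 was the lowest tumor for 26 and tumor 2 for 8, and tumor 4 was the highest for 17 and tumor 9 for 16. The median log2 ratio of these 42 genes to control was -3.50 in tumor 1, -2.99 in tumor 2, -1.91 in tumor 9 and -1.75 in tumor 4. The genes differed in how far the tumors spread: the highest tumor was 3.92 times the lowest for the median gene of the 42, and 15.8 times for cacng1b.

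Neuronal markers moved with these genes. Of 31 mature neuron markers tested, 29 were called lower and 1 higher (median log2 fold change -2.66), and 10 of 11 markers of cerebellar granule and Purkinje neurons were called lower. The neuron marker that rose, elavl3 (1.13), was at 709 to 957 CPM in the tumors, against 388 and 379 CPM in the control pools. It is included in the sums below. The summed neuron marker level ranged between 2572 CPM in tumor 1 and 5874 CPM in tumor 9, against 17802 and 17774 CPM in the control pools, and the tumors with the lowest sums (1, 2 and 8) had the lowest channel levels. Markers of other cells went several ways: 6 of 10 radial glia markers were called lower and 0 higher, 8 of 14 oligodendrocyte precursor markers were called higher and 5 lower, 9 of 14 microglia and macrophage markers were called higher and 0 lower, 4 of 11 mature oligodendrocyte markers were called higher and 2 lower, and 11 of 11 rows of proliferation markers were called higher. Over all genes tested, 24.9% were called lower and 22.8% higher, and some of these counts lie near those shares, as the 18.2% of mature oligodendrocyte markers called lower. The part of these markers in the fall of the channel genes was not tested.

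**Figure D5:**
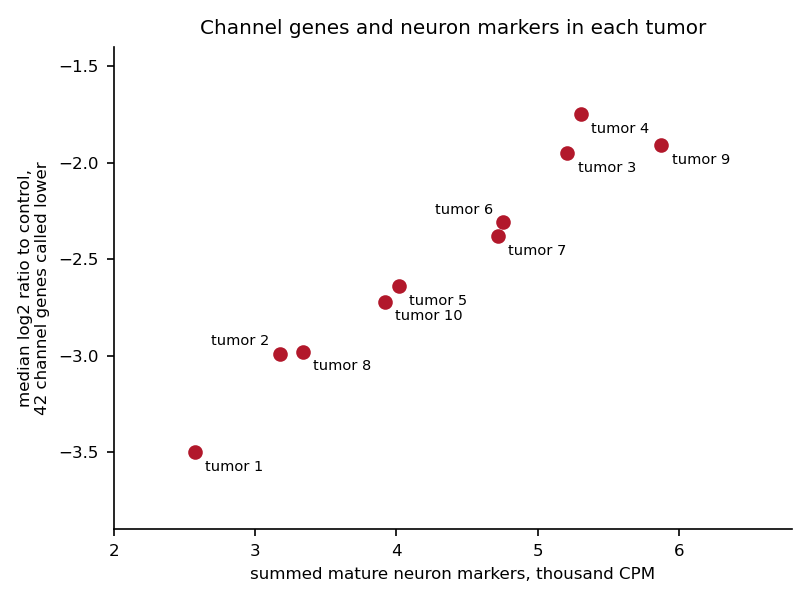
Median log2 ratio to control of the 42 channel genes called lower (vertical axis) and summed CPM of the mature neuron markers (horizontal axis, in units of 1000 CPM), 1 point per rb1 tumor. Tumor 1 lies lowest on both axes, and tumors 3, 4 and 9 lie highest.

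Set against the neuron marker sum of the same sample, the members took different sides. Of 59 tested members, 48 had a fold change above the neuron list's median (-2.66) and 11 at or below it. The median over all genes tested was 0.09, so most genes also lie above that value, and their share was not counted. When each gene was expressed per 1000 CPM of summed neuron markers, 13 members (22%) had all tumors below every control value and 11 (18.6%) had all tumors above. Over all genes tested the shares were 4.21% below and 71.8% above. The marker sum includes elavl3, which rose and makes up more of the sum in the tumors than in control brain. Its inclusion lowers the tumor values on this scale relative to control, and the counts were not repeated without elavl3. Among the 13 were cacna1ab, cacna1ea, cacna1eb, cacna1g, cacna1ha, cacna1i, cacnb2b, cacng1b, cacng2b, cacng3b, cacng7b and cacng8a. Some of them lay close to control. The highest tumor was at 3.05 for cacng7b, against 3.06 in the control b sum, and at 2.88 for cacng3b, against 3.13 in control pool 2. The highest tumor for cacna1i was at 0.486, against 0.533 in the control b sum. Every tumor held at least 709 CPM of elavl3. Without elavl3 in the sum, cacng7b, cacng3b and cacna1i would each have a tumor above a control value. The other members were not recounted without elavl3. Among the genes called lower, 5 lay above on this scale: scn8ab, scn1lab, cacna1ba, cacnb2a and cacnb3a. Also above were cacna1aa, cacna1bb, cacna1fa, cacna1sb and scn4ab, none of which passed in the comparison above. On this scale cacna1aa was at 37.2 to 67.2 in the tumors, against 22.3 and 21.8 in the control pools, and cacna1ha was at 2.12 to 4.24 in the tumors, against 6.86 and 7.02 in the control pools. The leading sodium alpha gene scn8aa overlapped, at 17.2 to 26.7 in the tumors, against 21.3 and 21.7 in the control pools.

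The genes that hold, anchor or answer to these channels were read from the same test, in which 24.9% of all genes were called lower and 22.8% higher. Of 14 tested genes for partners of sodium channels at the axon initial segment and node, 8 were called lower and 1 higher (median -1.52). The anchor ank3a, which encodes ankyrin G, was at 69.7 to 224 CPM in the tumors (median 111 CPM), against 618 and 614 CPM in the control pools (-2.33 ± 0.34, adjusted p = 6.85e-05). Its copy ank3b did not pass (-0.45 ± 0.18, adjusted p = 0.0454). It was at 121 to 231 CPM in the tumors (median 169 CPM), against 238 CPM in both control pools. The adhesion gene cntn1a was the one that rose (1.39), while its copy cntn1b fell (-3.05). Of the 7 intracellular FGF genes, whose proteins bind the tail of sodium channels, 6 fell and fgf13b (0.55) did not pass.

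On the calcium side, 17 of 21 tested genes for presynaptic partners of calcium channels were called lower and 0 higher (median -1.91). Among them was pclob (-2.95), which encodes a scaffold of the active zone. By the same rule, 24.9% of all genes tested were called lower and 22.8% higher. Of 8 AMPA receptor subunit genes, the clients of the TARPs, 6 fell, and gria4a (0.20) and gria4b (-0.94) did not pass. Among 12 tested inhibitors and adaptors of calcium channels 7 were lower, including rem2 (-3.0), a small GTPase that holds calcium channels back. The calcium-binding protein gene cabp2b varied among tumors, between 0.927 and 45.1 CPM (median 23.4 CPM), against 2.03 and 1.72 CPM in the control pools. It did not pass in edgeR (3.41 ± 1.41, adjusted p = 0.0494), while DESeq2 called it higher (adjusted p = 0.00197). The edgeR fit with a replicate block also called it higher (adjusted p = 0.00135). Only tumors 1 and 2 share a number with a pool, so the fold change of that fit rests on these 2 tumors.

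Genes for other transport and storage of sodium and calcium ions were mostly lower. The shares over all genes tested were 24.9% called lower and 22.8% called higher. Of 13 tested calcium extrusion genes 11 fell (median -2.27), with atp2b2, a plasma membrane calcium pump, at -3.10. Of 12 sodium pump subunit genes 9 fell, with atp1a3a, the neuronal alpha subunit, at -2.77. Calcium store genes were mixed, with 7 of 14 lower and 1 higher. The release channel gene itpr1b, which is also in the Purkinje marker list, fell (-3.38), while its copy itpr1a (0.06) did not pass. The store sensor gene stim2b rose (1.73). Of 5 tested rows for the sodium leak channel complex 4 fell.

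The repressor REST binds regulatory sites of many neuronal genes, sodium channel genes among them, in cells that are not neurons. Its gene rest was at 25.1 to 52.8 CPM in the tumors (median 34 CPM), against 11.6 and 11.5 CPM in the control pools. Every tumor was above both pools, and rest rose by 1.61 ± 0.27 on the log2 scale (adjusted p = 0.000205). Its cofactor genes rcor1 (1.06) and rcor3 (1.08) also rose, while rcor2 (0.46), sin3aa (0.16) and sin3ab (0.58) did not pass. Of the 6 genes of this list, 3 were called higher and 0 lower, against 22.8% and 24.9% over all genes tested. The relation between rest and the channel genes was not tested.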

How the data were processed

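RNA-seq libraries were made by the authors with the Illumina TruSeq v2 kit from 10 rb1 tumors and 2 pools of 3 control brains, 24 libraries of 12 RNA samples. The deposited counts are whole reads per Ensembl gene without normalization. According to the study's methods and processing notes, reads were aligned to GRCz10 with GSNAP and unique alignments were counted with HTSeq, a step written under its larval libraries. The use of strand is not given in the sources used here. The deposited FPKM values were computed by the authors from these counts and the deposited exonic length. A deposited table of the authors' DESeq2 fold changes and p-values was not used here.

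Here the a and b libraries of each label were summed. Genes passing edgeR's (4.0.16) expression filter were fitted with its quasi-likelihood test and TMM scaling, after a check on simulated data. Calls required at least 1.5-fold with an adjusted p no higher than 0.01. DESeq2 1.42.0, limma 3.58.1 and R 4.3.3 served the alternatives. The fit used the control pools as labelled. Same-letter control libraries did not differ beyond sampling noise, so p-values rest on a control spread that may be technical, and class levels are given beside the control a and b sums. With controls summed by letter, 42 members were also called lower. The members and gene lists were chosen with earlier results of these data known, and the scale relative to neuron markers was chosen after the values had been seen. Genes given in full were, in each class, the largest called change in each direction and the highest FPKM in each group, among those averaging at least 1 CPM; scn8ab, scn1lab, scn4ab, cacna1bb, cacna1fa, scn2b, scn3b and the partner genes were added after their values were seen. A withheld item is not reported here by name or value, and stays in the counts over all members. Protein and promoter sequences were not analysed here.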

Additional observations from a re-analysis of the deposited data

Results flagged for a closer look

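In 3 of 57 channel genes, 1 tumor stood apart from the other 9 by its gap on the log2 scale, where chance flags about 1 in 20 groups. Tumor 4 was the highest for cacna2d3, at 4.07 CPM with the next tumor at 1.68 CPM. Tumor 1 was the lowest for cacnb3a, at 4.51 CPM with the next at 6.91 CPM, and for scn8aa, at 44.2 CPM with the next at 79.3 CPM. The calls of cacna2d3, cacnb3a and scn8aa did not change when any single tumor was left out.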

How the results depend on the processing

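Over 26 alternatives the number of channel genes called lower ranged between 36 and 50, and no fold change with a call reversed. It was 41 to 44 without each tumor in turn and 36 without either control pool. The number called higher was 0 except under limma voom with sample quality weights (2 genes) and with the limit on adjusted p raised to 0.05 and none on fold (1 gene, cacna1fa). With the replicate block, 40 were lower and 0 higher: CACNA1I, cacnb3a and cacng1b were lost and cacna1aa was gained (-1.38, adjusted p = 0.00206). Tumors and pools share only the numbers 1 and 2, so the fold change of that fit rests on tumors 1 and 2 against the 2 pools. The differences between those numbers correlated at 0.02 across genes. The 2 pools did not differ beyond read sampling (chi-square per degree of freedom 1.009), so this correlation cannot show whether the numbers pair the samples. Of the 42 calls, 33 held in every setting in which the gene was tested. Over all genes, calls were 3158 higher and 3792 lower in edgeR's test against a 1.5-fold change, and 2949 higher and 3626 lower without control pool 1 or 2904 and 3576 without pool 2, against 4779 higher and 5220 lower. On the linear scale, 2 of the 3 genes with a tumor that stood apart no longer had one, and 8 other genes gained one. Members under 1 CPM are limited by depth.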
